A study of Homo sapiens with 30 samples.

Results

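The genes described here are 35 genes of the hypoxia response and of glycolysis, of 59665 genes in the RefSeq table used, and are called the members. They were picked as targets or parts of the pathway of the hypoxia-inducible factors (HIF), because JIB-04 is known as an inhibitor of dioxygenases that need iron and 2-oxoglutarate. The rule used no measured value, but the members were chosen with earlier results of these data known. A ChIP-seq peak was assigned to a gene when it overlapped the annotated gene or lay within 2 kb of it. This gave 204 of 84848 peaks: 56 of 21268 peaks of trimethylated lysine 4 of histone H3 (H3K4me3) at 33 genes, and 148 of 63580 peaks of acetylated lysine 27 (H3K27ac) at 32 genes. SLC2A3, which encodes the glucose transporter GLUT3, had no peak of either mark. EGLN3 had no H3K4me3 peak, and CA9 and P4HA2 had no H3K27ac peak.

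HIF is a pair of an oxygen-regulated alpha subunit, such as HIF1A, and the stable partner ARNT. In the presence of oxygen, prolyl hydroxylases of the EGLN family modify the alpha subunit, VHL then binds it, and it is degraded. These hydroxylases need iron and 2-oxoglutarate, as do the Jumonji histone demethylases against which JIB-04 was developed. When oxygen is low the alpha subunit persists, enters the nucleus and binds short elements with the core letters ACGTG or GCGTG near genes of glucose uptake, glycolysis, acid export, mitophagy and vessel growth. H3K4me3 marks active and poised gene starts, and H3K27ac marks active starts and enhancers. Neither is a measure of transcript level. In a population of cells, a lower level in every cell and a loss in some cells cannot be told apart.

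The cells were OCI-Ly1, an established human diffuse large B cell lymphoma line, so the data describe 1 line. All libraries came from cells given either JIB-04 at 150 nM, JIB-04 at 500 nM or the vehicle, DMSO at 0.01%, with 2 libraries per group and mark; the length of treatment is not given in the sources used here. The 12 libraries of H3K4me3 and H3K27ac were used, of 30 in the series. The labels do not say whether the paired libraries came from separate cultures, so p-values measure only the spread between these samples. Levels are given in CPM, the usual read count scaled for depth, here by the TMM-scaled sum of counts over tested peaks. Fold changes are on the log2 scale with a standard error (SE) and an adjusted p from edgeR's quasi-likelihood test over all tested peaks of a mark, and a peak was called when the adjusted p was under 0.05.

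Total counts in peaks were 9686420 to 12327122 per H3K4me3 library and 4360660 to 5410292 per H3K27ac library, with a median count per peak of 263 to 328 and 21 to 24. Peaks were found at 7 of 7 B cell marker genes in both marks, against 1 of 5 myeloid marker genes for H3K4me3 and 0 of 5 for H3K27ac, 3 of 5 and 4 of 5 T cell marker genes, and 3 of 4 and 1 of 4 epithelial marker genes. The median summed level of the B cell genes in DMSO was 233 CPM for H3K4me3 and 158 CPM for H3K27ac, that of the T cell genes 27.2 and 1.69 CPM. The epithelial median was 0.392 CPM for H3K4me3 and 0 for H3K27ac, and the myeloid median 0 for both marks.

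At 500 nM against DMSO, H3K4me3 fell at most starts of these genes. Of 54 tested peaks, 32 were lower and 9 were higher, where 18.7% of all 20402 tested H3K4me3 peaks were called lower and 20.7% higher. Among the members' peaks these shares were 59.3% and 16.7%. The median log2 fold change was -0.26 over the members' peaks and -0.01 over all tested peaks. Of the 33 main peaks, meaning the peak of each gene with the highest mean count, 28 fell, 1 rose (NDRG1) and 4 were not called (ALDOC, HK1, VHL and BNIP3L). In the promoter table used, 31 peaks lay on or within 1 kb of a start of the member itself. At 500 nM, 30 of these 31 had a fold change below 0, and 28 were called lower and 0 higher. A GPI peak that rose covers the upstream end of the annotated gene. It covers no start in that table, so it is not among the 31. VEGFA, VHL, BNIP3L and NDRG1 have no start there either. Their 4 peaks, each at or within 1 kb of an end of the gene, are also left out. Of these 4, 1 was lower (VEGFA) and 1 higher (NDRG1).

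**Figure D1:**
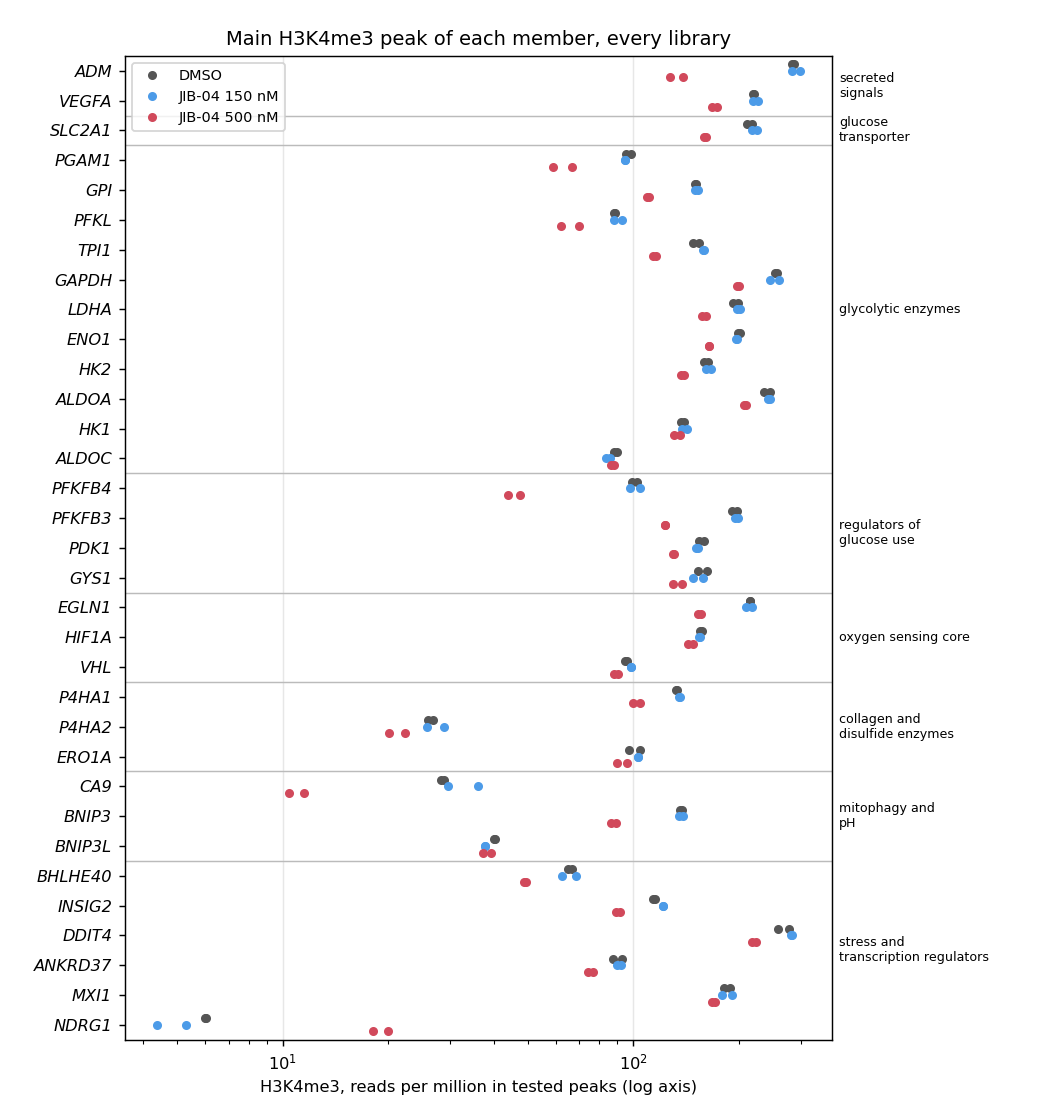
H3K4me3 level (CPM, log axis) of the main peak of each of the 33 genes with a peak, with 1 point per library, coloured by treatment and grouped by the role of the gene. The 500 nM libraries lie left of the DMSO and 150 nM libraries for most genes, while NDRG1 at the bottom lies to the right.

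Strong peaks and peaks over starts were lower more often in the whole data set too, so the members were read against peaks of the same kind. Among peaks that cover a gene start, 28 of 35 member peaks were lower (80.0%) against 21.9% of 9977, with medians of -0.29 and -0.03. Among the 20% of peaks with the highest level, 21 of 24 member peaks were lower (87.5%) against 34.2% of 4081, and all 24 had a fold change below 0, as did 77.1% of the 4081. In the 20% below them, 6 of 9 were lower (66.7%) against 22.7% of 4080. Large falls were present as well: 7 of 54 member peaks (13.0%) were called with a log2 fold change of -1 or below, against 1.98% of all tested peaks. Over the 33 main peaks the fold change had a Spearman correlation of -0.42 with the length of the peak and of -0.07 with its mean count; these values share 6 libraries and are a description.

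**Figure D2:**
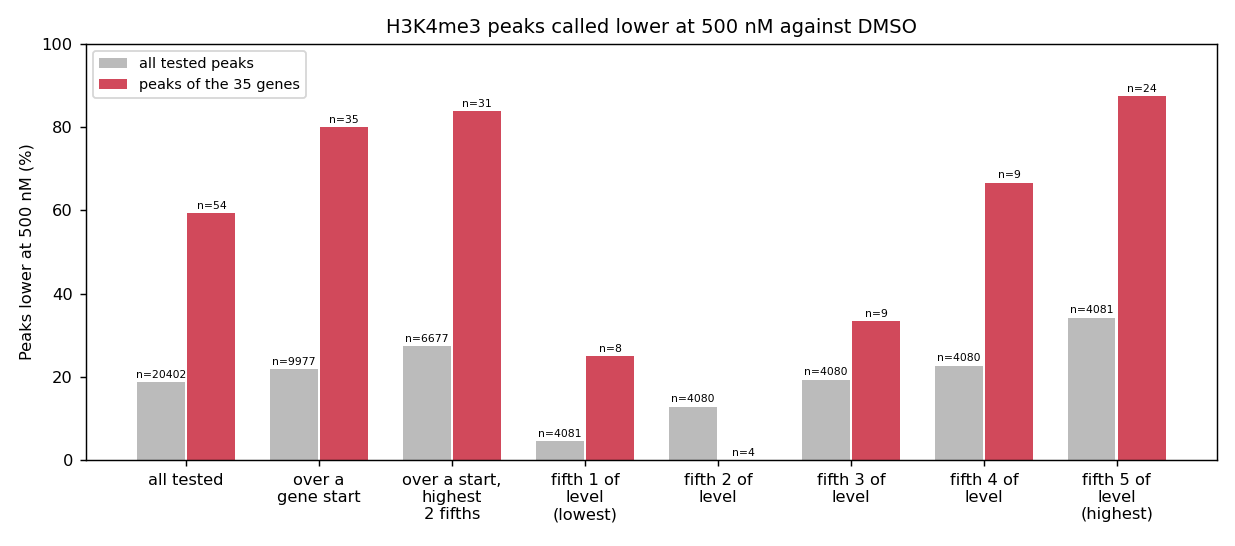
Percent of tested H3K4me3 peaks called lower at 500 nM against DMSO, for all tested peaks (grey) and for the peaks of the 35 genes (red), for all levels, over gene starts and in 5 bins of mean level with equal numbers of peaks, with the number of peaks above each bar. The red bar is the taller one except in bin 2, where it is 0 of 4, and it reaches 87.5% in bin 5, the highest.

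The 250 bases before the annotated start are shown for 5 genes whose start peaks fell strongly, and for a pair of PFKFB3 starts that behaved differently. They are from RefSeq on GRCh38.p14, each written 5′ to 3′ along the gene's strand. Capitals mark the letters ACGTG or GCGTG on either strand; on the opposite strand these read CACGT and CACGC, and the palindrome CACGTG counts as 1 match on each strand. The second PFKFB3 line is the start under the peak that was not called.
CA9, chr9:35673678-35673927, plus strand: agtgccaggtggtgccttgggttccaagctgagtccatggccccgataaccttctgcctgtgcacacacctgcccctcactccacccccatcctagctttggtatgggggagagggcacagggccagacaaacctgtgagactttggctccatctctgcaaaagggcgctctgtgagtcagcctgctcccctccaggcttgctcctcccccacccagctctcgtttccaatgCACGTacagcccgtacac
ALDOC, chr17:28576896-28577145, minus strand: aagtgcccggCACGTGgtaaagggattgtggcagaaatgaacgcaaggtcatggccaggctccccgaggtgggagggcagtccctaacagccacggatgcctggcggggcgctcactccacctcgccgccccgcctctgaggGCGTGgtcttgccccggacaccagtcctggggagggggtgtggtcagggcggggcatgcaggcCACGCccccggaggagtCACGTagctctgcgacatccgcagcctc
ADM, chr11:10304823-10305072, plus strand: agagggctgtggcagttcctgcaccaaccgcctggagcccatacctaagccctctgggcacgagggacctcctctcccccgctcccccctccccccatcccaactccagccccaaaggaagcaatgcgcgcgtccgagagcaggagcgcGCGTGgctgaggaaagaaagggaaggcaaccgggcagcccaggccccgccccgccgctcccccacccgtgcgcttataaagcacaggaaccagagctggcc
PFKFB4, chr3:48556804-48557053, minus strand: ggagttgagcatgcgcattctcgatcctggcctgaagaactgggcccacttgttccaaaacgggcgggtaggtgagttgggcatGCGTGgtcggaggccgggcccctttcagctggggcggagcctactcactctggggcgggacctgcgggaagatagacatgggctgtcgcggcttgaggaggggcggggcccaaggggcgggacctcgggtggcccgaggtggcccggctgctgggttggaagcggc
BNIP3, chr10:131981924-131982173, minus strand: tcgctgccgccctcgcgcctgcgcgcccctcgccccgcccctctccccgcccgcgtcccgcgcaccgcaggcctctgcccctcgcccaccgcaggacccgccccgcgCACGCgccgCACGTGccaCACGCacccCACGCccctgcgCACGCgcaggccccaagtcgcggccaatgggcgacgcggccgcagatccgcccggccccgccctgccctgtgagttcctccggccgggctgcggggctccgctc
PFKFB3, chr10:6202682-6202931, plus strand: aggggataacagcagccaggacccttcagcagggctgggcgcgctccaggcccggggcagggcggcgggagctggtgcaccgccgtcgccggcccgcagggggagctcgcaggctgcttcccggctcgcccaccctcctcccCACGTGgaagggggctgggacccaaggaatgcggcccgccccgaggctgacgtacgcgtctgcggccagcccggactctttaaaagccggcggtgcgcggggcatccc
PFKFB3, chr10:6144671-6144920, plus strand: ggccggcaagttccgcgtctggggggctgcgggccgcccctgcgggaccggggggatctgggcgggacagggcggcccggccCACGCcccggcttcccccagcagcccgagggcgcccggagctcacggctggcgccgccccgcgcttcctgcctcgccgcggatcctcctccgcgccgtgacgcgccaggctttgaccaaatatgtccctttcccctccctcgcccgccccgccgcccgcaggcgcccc

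CA9 held a single ACGTG match, on the opposite strand, beginning 18 bases before the start. ALDOC held 3 ACGTG matches and 2 GCGTG matches, and BNIP3 held 2 and 4. ADM and PFKFB4 held only a GCGTG match, 101 and 166 bases before the start. The PFKFB3 start under the lower peak held the palindrome, 108 bases before it, and the other PFKFB3 start held only GCGTG, 168 bases before it. PGAM1, whose start peak had a log2 fold change of -0.62, is not shown. The 300-base window at its only start in the promoter table, chr10:97427568-97427867, held neither string. That window lies inside the annotated gene, which begins at 97426191, and the sequence before that end was not searched. A match is a string of letters and not a measured binding site. In the full windows of 300 bases (250 before to 50 after the start), ACGTG stood in 23 of 40 member promoters under a tested H3K4me3 peak (57.5%) and in 26.9% of 15538 such promoters of all genes. For GCGTG the shares were 57.5% and 52.2%. Since the members were picked as genes of the HIF pathway, that excess is not independent of how they were picked.

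With the letters ACGTG in at least 1 member promoter under the peak, 19 of 19 peaks were lower, with a median of -0.36. Of the 11 peaks with no such promoter, 8 were lower, with a median of -0.28. The PGAM1 peak counts among the 11 by its window inside the gene. Over all genes the corresponding shares were 23.8% of 3220 peaks and 21.0% of 6757 peaks. For VEGFA, VHL, BNIP3L, NDRG1 and SLC2A3 no promoter was shown or searched.

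Among the secreted signals, ADM, which encodes the vessel-dilating peptide adrenomedullin, had one of the largest falls. Its peak at chr11:10302467-10310981 covers the start of ADM and also a start of SBF2. The level was 286.5 and 283 CPM in the DMSO libraries, 299 and 284 in those given 150 nM and 139 and 127 in those given 500 nM. Both 500 nM libraries lay below the other 4, a 2.14-fold fall (log2 fold change -1.10, SE 0.03, adjusted p = 5.7e-34). VEGFA, the main HIF-driven growth factor for vessels, fell less, from 219 and 221 CPM in DMSO to 168 and 174 CPM at 500 nM. The 150 nM libraries of VEGFA, at 227 and 219 CPM, lay with DMSO and did not overlap the 500 nM pair (log2 fold change -0.37, SE 0.03, adjusted p = 3.3e-14).

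SLC2A1 encodes GLUT1, the transporter through which most cells take up glucose. Its start peak, chr1:42955116-42961108, also covers the start of the divergent transcript SLC2A1-DT. The level was 218 and 212 CPM in the DMSO libraries, 225 and 218 in those given 150 nM and 159 and 161 in those given 500 nM, so that both 500 nM libraries lay below the other 4 (log2 fold change -0.43, SE 0.03, adjusted p = 1.6e-16). A smaller peak just beyond the other end of the gene rose instead (log2 fold change 0.26, SE 0.07, adjusted p = 0.0022).

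All 11 glycolytic enzyme genes had an H3K4me3 peak, and 10 of the 11 peaks at their own starts were lower, with a median log2 fold change of -0.36. PGAM1, phosphoglycerate mutase, had the largest fall among their main peaks, at chr10:97425140-97428845, a peak that also covers a start of LOC644215. Its level was 98.6 and 95.4 CPM in the DMSO libraries, 94.9 and 94.7 in those given 150 nM and 66.7 and 59.1 in those given 500 nM. The 500 nM pair lay below the other 4 libraries (log2 fold change -0.62, SE 0.05, adjusted p = 3.1e-16). GPI, glucose-6-phosphate isomerase, was at 151 and 149.9 CPM in the DMSO libraries, 153 and 149.6 in those given 150 nM and 111 and 109 in those given 500 nM over its start at chr19:34364245-34367171. Neither 500 nM library reached the other 4 (log2 fold change -0.45, SE 0.04, adjusted p = 4.3e-15). The GPI peak over the upstream end of the annotated gene rose instead and is described below. For PFKL, the liver-type phosphofructokinase, the level was 88.8 and 87.9 CPM in the DMSO libraries, 93.1 and 87.8 in those given 150 nM and 61.98 and 70.1 in those given 500 nM. At 500 nM both libraries were below all the others (log2 fold change -0.43, SE 0.05, adjusted p = 2.4e-10).

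The other glycolytic main peaks that were called moved by a smaller amount. TPI1 fell by 0.39, GAPDH by 0.36, LDHA by 0.29, ENO1 by 0.28, HK2 by 0.22 and ALDOA by 0.21 on the log2 scale, with adjusted p values between 1.7e-14 and 1.1e-06. The ENO1 peak also covers a start of ENO1-AS1, and the HK2 peak a start of HK2-DT. LDHA, which turns pyruvate into lactate, was at 192 and 199 CPM in DMSO and 161 and 157.5 CPM at 500 nM, without overlap. HK1, the widely expressed hexokinase, was not called over its starts (log2 fold change -0.05, SE 0.04, adjusted p = 0.35).

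ALDOC, a brain-enriched aldolase, had the largest fall of any member peak. Its strongest peak lies over the start of the neighbouring gene PIGS and did not change beyond its error (log2 fold change -0.02, SE 0.04, adjusted p = 0.71). The peak over its own start, chr17:28575797-28577029, was at 19.8 and 18.4 CPM in the DMSO libraries, 23.02 and 17.9 in those given 150 nM and 2.89 and 1.02 in those given 500 nM. No overlap was seen, with the 500 nM pair lowest, a 9.33-fold fall (log2 fold change -3.22, SE 0.20, adjusted p = 7.9e-21). The 500 nM level rests on few reads, and the log2 fold change ranged from -4.21 to -2.72 over the alternatives.

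The genes that set the rate and fate of glucose use also fell. PFKFB4 and PFKFB3 encode bifunctional enzymes that make fructose 2,6-bisphosphate, the activator of phosphofructokinase. PFKFB4 was at 99.3 and 102 CPM in the DMSO libraries, 105 and 97.5 in those given 150 nM and 47.5 and 44.02 in those given 500 nM over its start, chr3:48553998-48558316. The 2 libraries at 500 nM were the lowest of the 6, a 2.19-fold fall (log2 fold change -1.13, SE 0.05, adjusted p = 2.7e-26). A small PFKFB4 peak nearby was at 2.78 and 2.06 CPM in the DMSO libraries, 2.60 and 2.61 in those given 150 nM and 0.68 and 0.408 in those given 500 nM. There, both 500 nM libraries lay below the other 4 (log2 fold change -2.12, SE 0.42, adjusted p = 3.7e-05).

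PFKFB3 spans 8 H3K4me3 peaks, of which 7 were tested, and they did not move together. The main one, chr10:6200698-6205962, covers one of its starts and that of PFKFB3-AS1, and was at 197 and 191 CPM in the DMSO libraries, 195 and 199 in those given 150 nM and 123.5 and 123 in those given 500 nM. Both 500 nM libraries lay below the other 4 (log2 fold change -0.66, SE 0.04, adjusted p = 3.7e-23). The peak over the upstream start, chr10:6144317-6146679, was not called (log2 fold change -0.07, SE 0.05, adjusted p = 0.30). The 3 small peaks inside the gene that follow were at 2.33 CPM or less in each library. The one at chr10:6206577-6206974 was at 1.31 and 0.884 CPM in the DMSO libraries, 2.06 and 2.33 in those given 150 nM and 0.255 and 0.204 in those given 500 nM. The 500 nM pair lay below the other 4 libraries (log2 fold change -2.21, SE 0.61, adjusted p = 0.0028). The peak at chr10:6275141-6275561 was at 0.735 and 0.688 CPM in the DMSO libraries, 0.537 and 0.931 in those given 150 nM and 1.87 and 1.63 in those given 500 nM. Both 500 nM libraries lay above the other 4 (log2 fold change 1.29, SE 0.43, adjusted p = 0.013). Farther along, the peak at chr10:6300313-6300724 was at 0.327 and 0.491 CPM in the DMSO libraries, 0.537 and 0.651 in those given 150 nM and 1.87 and 1.53 in those given 500 nM. The 500 nM pair was above the other 4 libraries (log2 fold change 2.06, SE 0.49, adjusted p = 4.7e-04). Of these, the first lost its call without DMSO replicate 1 (adjusted p = 0.084), and the second without DMSO replicate 1 (0.096), DMSO replicate 2 (0.095) or 500 nM replicate 1 (0.094).

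PDK1, a kinase that inhibits pyruvate dehydrogenase, fell by 0.27 and GYS1, muscle glycogen synthase, by 0.24 on the log2 scale (adjusted p = 1.5e-08 and 8.4e-07). The GYS1 peak also covers the start of RUVBL2.

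Of the 3 oxygen-sensing genes with an H3K4me3 main peak, 2 fell. EGLN1, the principal HIF prolyl hydroxylase and itself a HIF target, was at 215 and 216 CPM in the DMSO libraries, 219 and 210.3 in those given 150 nM and 153 and 156 in those given 500 nM. Neither 500 nM library reached the other 4 (log2 fold change -0.48, SE 0.03, adjusted p = 2.4e-18). The start of HIF1A moved little, at 155 and 157 CPM in the DMSO libraries, 155 and 154 in those given 150 nM and 143 and 148 in those given 500 nM over chr14:61694722-61699463, a peak shared with HIF1A-AS1. At 500 nM both libraries were below all the others, and the fall was small (log2 fold change -0.10, SE 0.04, adjusted p = 0.018). VHL was not called. Its level was 96.2 and 94.8 CPM in the DMSO libraries, 98.6 and 98.2 in those given 150 nM and 90.3 and 87.8 in those given 500 nM, and both 500 nM libraries lay below the other 4 (log2 fold change -0.10, SE 0.04, adjusted p = 0.066).

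HIF1A had another peak at its far end, with a larger fall than at the start. It lies at chr14:61747878-61752334, reaches past the annotated end of HIF1A and covers the starts of the antisense transcripts HIF1A-AS2 and HIF1A-AS3. Its level was 76.3 and 61.9 CPM in the DMSO libraries, 76.3 and 68.3 in those given 150 nM and 17.2 and 15.6 in those given 500 nM. No overlap was seen, with the 500 nM pair lowest, a 4.23-fold fall (log2 fold change -2.08, SE 0.08, adjusted p = 3.3e-29). ChIP reads carry no strand of transcription, so this peak cannot be given to HIF1A or to its antisense transcripts.

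Among the genes of mitophagy and pH, CA9, the surface carbonic anhydrase often used as a marker of hypoxia, had the largest fall of any main peak. Its peak at chr9:35673452-35676310 was at 28.8 and 28.3 CPM in the DMSO libraries, 36.01 and 29.6 in those given 150 nM and 11.5 and 10.4 in those given 500 nM. The 2 libraries at 500 nM were the lowest of the 6, a 2.60-fold fall (log2 fold change -1.38, SE 0.11, adjusted p = 1.1e-16). BNIP3, a mitophagy receptor, was at 136 and 138 CPM in the DMSO libraries, 138 and 135 in those given 150 nM and 86.5 and 89.2 in those given 500 nM over its start at chr10:131978597-131982919. Both 500 nM libraries lay below the other 4 (log2 fold change -0.64, SE 0.04, adjusted p = 3.6e-20). Its relative BNIP3L was not called (log2 fold change -0.08, SE 0.07, adjusted p = 0.39).

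Of the collagen and disulfide enzymes, all 3 starts fell. P4HA1 and P4HA2, subunits of collagen prolyl hydroxylase, fell by 0.38 and 0.32, and ERO1A, which forms disulfide bonds in the endoplasmic reticulum, by 0.12 on the log2 scale. Of the stress and transcription regulators, 5 of 6 main peaks fell. BHLHE40, a transcriptional repressor, was at 64.9 and 66.8 CPM in the DMSO libraries, 68.5 and 62.5 in those given 150 nM and 48.6 and 49.5 in those given 500 nM, in a peak shared with BHLHE40-AS1. The 500 nM pair lay below the other 4 libraries (log2 fold change -0.42, SE 0.06, adjusted p = 6.8e-09). INSIG2 fell by 0.34, DDIT4, an inhibitor of mTORC1 signalling, by 0.28, ANKRD37 by 0.26 and MXI1, an antagonist of MYC, by 0.13 on the log2 scale.

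NDRG1, a stress-induced gene that is among the commonest HIF targets, went the other way. Its single H3K4me3 peak, chr8:133296426-133298112, covers one end of the gene. The level was 6.04 and 5.99 CPM in the DMSO libraries, 5.29 and 4.37 in those given 150 nM and 18.1 and 20.02 in those given 500 nM. At 500 nM both libraries were above all the others, a 3.15-fold rise (log2 fold change 1.66, SE 0.14, adjusted p = 4.6e-15). It was the only main peak of the 33 that rose.

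**Figure D3:**
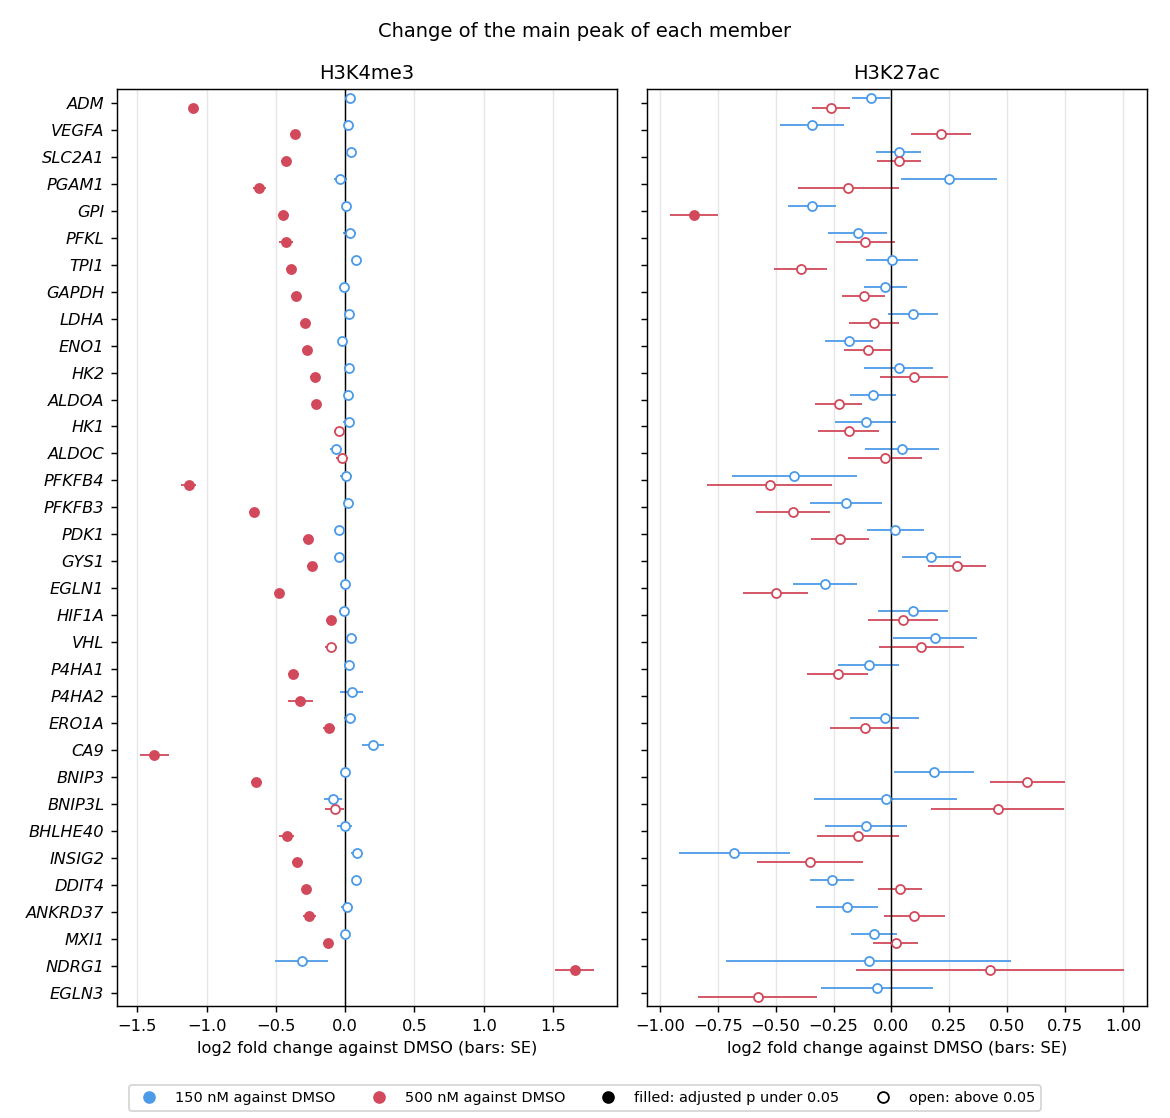
Log2 fold change against DMSO of each gene's main peak for H3K4me3 (left) and H3K27ac (right), at 150 nM (blue) and 500 nM (red), with bars of 1 SE and filled points for adjusted p under 0.05. At 500 nM, 28 H3K4me3 main peaks are filled left of 0 and NDRG1 right of it, while GPI is the only filled point for H3K27ac.

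Among peaks away from starts, more rose than fell. Of 16 tested H3K4me3 peaks of the members that lie over 1 kb from any start in the promoter table, 3 were lower and 7 higher, with a median of 0.24. Of all 8920 tested peaks that far from a listed start, 15.8% were lower and 23.3% higher. That table is not complete: the 16 hold the main peaks of VEGFA and VHL, whose starts were not placed. They also hold the higher GPI peak, which covers the upstream end of the annotated gene and stays in the next count. Without VEGFA and VHL, 2 of 14 were lower and 7 higher, with a median of 0.27. Their median mean count was 24.9 per library, against 1510 at the members' own starts. The 14 came from 7 genes, and 3 of the 7 higher peaks were in PFKFB3. Weak peaks rose more often in the whole data set too. Of the 4081 peaks in the lowest of 5 bins of level, 26.1% were higher and 4.58% lower. In the next bin, 34.1% of 4080 were higher and 12.8% lower. In BNIP3, a peak inside the gene at chr10:131972468-131973186 was at 1.14 and 0.884 CPM in the DMSO libraries, 1.07 and 0.558 in those given 150 nM and 2.89 and 3.27 in those given 500 nM. Both 500 nM libraries lay above the other 4 (log2 fold change 1.57, SE 0.35, adjusted p = 2.1e-04), opposite to the start. In HK1, a peak 6070 bases from a start was at 1.88 and 1.87 CPM in the DMSO libraries, 2.69 and 3.07 in those given 150 nM and 3.23 and 3.27 in those given 500 nM. The 500 nM pair was above the other 4 libraries (log2 fold change 0.79, SE 0.29, adjusted p = 0.024), and the call was lost when any 1 DMSO or 500 nM library was left out (adjusted p between 0.064 and 0.105).

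**Figure D4:**
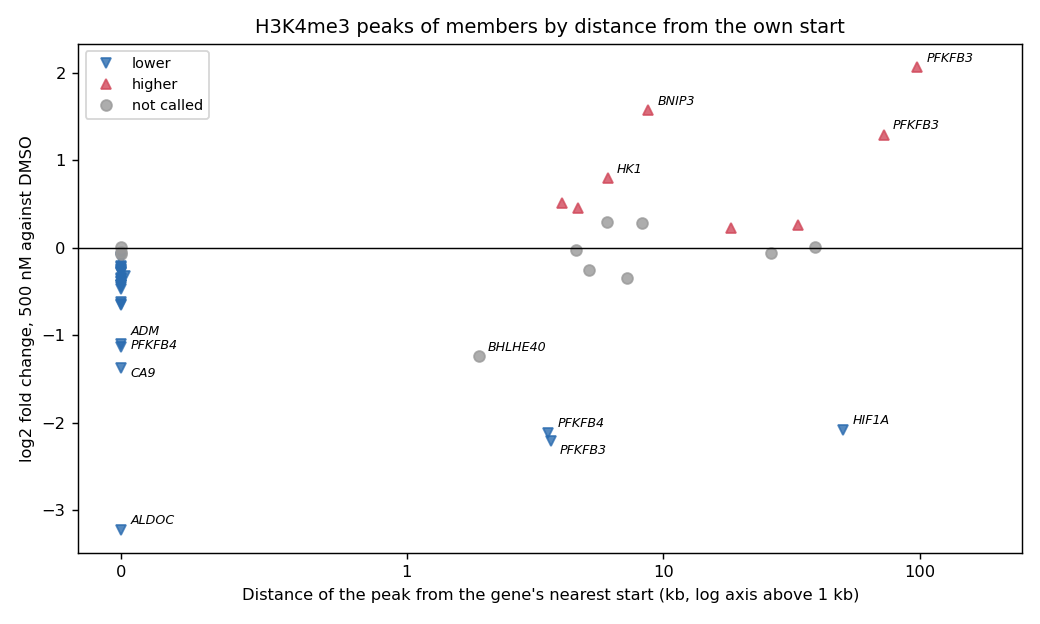
Log2 fold change of H3K4me3 at 500 nM against DMSO for tested peaks of genes with a placed start, by the distance of the peak from the gene's nearest start (kb, log axis above 1 kb). All called peaks at distance 0 point down. The 8 peaks that rose all lie over 1 kb from the gene's own start in the promoter table. The GPI peak among them covers the upstream end of the annotated gene.

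With the counts of all peaks of a gene added up, 29 of 33 genes were lower and 1 higher at 500 nM, where 22% of all 20217 genes were lower and 19.8% higher. The summed fall was largest for CA9 (-1.38), PFKFB4 (-1.15), ADM (-1.10), PGAM1 (-0.62) and BNIP3 (-0.59). NDRG1 was the gene that was higher. The genes not called by their sums were HK1, VHL and BNIP3L.

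At 150 nM against DMSO no H3K4me3 peak was called: 0 of 54 member peaks and 0% of all tested peaks in edgeR, and 0 member peaks in DESeq2. At an unadjusted p under 0.05 there were 6 member peaks (11.1%) and 4.66% of all tested peaks. The median over the members' peaks was 0.02 on the log2 scale. CA9, with 36.01 and 29.6 CPM at 150 nM against 28.8 and 28.3 in DMSO, had a log2 fold change of 0.20 (SE 0.08), the opposite sign to its change at 500 nM, and was not called. ADM was at 0.03 (SE 0.03) and PFKFB4 at 0.01 (SE 0.04).

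The direct comparison of the doses, 500 nM against 150 nM, uses the same 500 nM libraries and is not independent of the contrast with DMSO. In it, 35 member H3K4me3 peaks were lower and 8 higher of 54, where 18.6% of all tested peaks were lower and 20.5% higher. CA9 differed by -1.58 (SE 0.10), ADM by -1.13 (SE 0.03), PFKFB4 by -1.14 (SE 0.05) and NDRG1 by 1.97 (SE 0.15), all called. VHL, not called against DMSO, was lower here (log2 fold change -0.14, SE 0.04, adjusted p = 0.0067).

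H3K27ac changed at few member peaks. At 500 nM against DMSO, 1 of 130 tested peaks was lower and 1 higher, where 0.231% of all 54037 tested H3K27ac peaks were lower and 0.692% higher. An unadjusted p under 0.05 was reached by 32 member peaks (24.6%) and by 11.5% of all. The median over peaks covering a gene start was -0.12 for 33 member peaks and 0.08 for 8062 in all, and 22 of the 33 (66.7%) were below 0 against 34.5%. At peaks on or within 1 kb of the member's own start the median was -0.23, and 33 of 43 were below 0, with 0 called.

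GPI carried the fall that was called. Its strongest H3K27ac peak, chr19:34356648-34361440, covers the upstream end of the annotated gene, 3552 bases from the nearest GPI start in the promoter table. Its level was 116 and 127 CPM in the DMSO libraries, 88.2 and 103 in those given 150 nM and 67.4 and 66.9 in those given 500 nM. Neither 500 nM library reached the other 4, a 1.81-fold fall (log2 fold change -0.85, SE 0.11, adjusted p = 3.4e-07). It was also lower at 500 nM than at 150 nM (log2 fold change -0.51, SE 0.11, adjusted p = 0.0031), and over the summed peaks GPI was the only member called of 32 (log2 fold change -0.50, SE 0.09, adjusted p = 0.0016), where 0.339% of 19792 genes were lower and 1.23% higher. The call of the sum was lost without DMSO replicate 2 or without 500 nM replicate 2, and the call of the peak held in each alternative run.

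The peak that rose lies inside SLC2A1, at chr1:42951580-42954216, 4652 bases from its start; it is named because it is the only one, chosen after its values were seen. Its level was 38.6 and 44.7 CPM in the DMSO libraries, 45.05 and 54.5 in those given 150 nM and 56.9 and 61.99 in those given 500 nM. At 500 nM both libraries were above all the others (log2 fold change 0.51, SE 0.13, adjusted p = 0.031), and its call was lost when any 1 DMSO or 500 nM library was left out.

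The main H3K27ac peaks of the other 31 genes gave no call at 500 nM, and 6 of them are given in full. GAPDH was at 162 and 160 CPM in the DMSO libraries, 143 and 173 in those given 150 nM and 150 and 146 in those given 500 nM (log2 fold change -0.12, SE 0.09, adjusted p = 0.67), with the 500 nM pair below the DMSO pair but not below both 150 nM libraries. For LDHA the level was 76.5 and 85.2 CPM in the DMSO libraries, 82.2 and 90.5 in those given 150 nM and 76.1 and 77.8 in those given 500 nM, where the 500 nM and DMSO libraries overlapped (log2 fold change -0.07, SE 0.11). HIF1A was at 31.5 and 33.9 CPM in the DMSO libraries, 28.3 and 41.1 in those given 150 nM and 32.97 and 34.8 in those given 500 nM, again with overlap (log2 fold change 0.05, SE 0.15). VHL was at 17.2 and 17.9 CPM in the DMSO libraries, 16.8 and 23 in those given 150 nM and 18.5 and 19.9 in those given 500 nM, with both 500 nM libraries above the DMSO pair by less than the error of the fit (log2 fold change 0.13, SE 0.18).

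EGLN3, the hydroxylase gene with no H3K4me3 peak, had 2 weak H3K27ac peaks inside the gene. The stronger was at 8.28 and 12.4 CPM in the DMSO libraries, 10.8 and 9.24 in those given 150 nM and 8.29 and 5.67 in those given 500 nM, with overlap between groups (log2 fold change -0.58, SE 0.26). VEGFA was at 39.5 and 45.5 CPM in the DMSO libraries, 31.02 and 36 in those given 150 nM and 50.7 and 48.3 in those given 500 nM. It was not called against DMSO (log2 fold change 0.22, SE 0.13), but was higher at 500 nM than at 150 nM (log2 fold change 0.56, SE 0.13, adjusted p = 0.013).

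At 150 nM against DMSO 0 of 130 member H3K27ac peaks were called in edgeR and 0 in DESeq2, where 0.00185% of all tested peaks (1 peak) were called in edgeR. An unadjusted p under 0.05 was reached by 9 member peaks (6.92%) and by 3.94% of all. Between the doses 1 member peak was lower (GPI) and 2 were higher (VEGFA, above, and a peak inside HK2), where 0.185% of all tested peaks were lower and 1.09% higher. The HK2 peak, named because it was called and chosen after its values were seen, was at 11.03 and 10.03 CPM in the DMSO libraries, 9.99 and 8.48 in those given 150 nM and 16.9 and 17.01 in those given 500 nM (log2 fold change 0.88, SE 0.21, adjusted p = 0.012). The calls for all 3 were lost when either 500 nM library was left out.

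The number of H3K27ac calls moved with the libraries and terms in the fit. Where no share of all tested peaks stands beside a member count, a rise cannot be told apart from one over all peaks. With only the 4 libraries of 500 nM and DMSO in the fit, 18 member peaks were called, 14 lower and 4 higher, where 4.12% of all tested peaks were called. Without 150 nM replicate 1 there were 15 and without 150 nM replicate 2 there were 14; leaving out any 1 DMSO or 500 nM library gave 1. The H3K27ac libraries also differed within groups: DMSO replicate 2 and 150 nM replicate 2 had 71.5 and 45.9 CPM on unplaced contigs against 322 to 446 CPM in the other 4. With that split as a term in the fit, 6 member peaks were called, 4 lower and 2 higher, where 2.36% of all tested peaks were called.

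At places with both marks the changes often had the same sign. Of the members' H3K4me3 peaks, 46 overlapped a tested H3K27ac peak, and 29 of these lay at the own start. Where several tested H3K27ac peaks overlapped, as at PGAM1 with 4, only the one with the longest overlap was used. Over those 29 the median log2 fold change was -0.34 for H3K4me3 and -0.15 for H3K27ac; 26 were called lower for H3K4me3, 20 of these 26 were below 0 for H3K27ac, and 0 were called for H3K27ac. Spearman's correlation between the marks was 0.76 over the 29 and 0.63 over the 46. It is given as a description of points that share libraries, genes and, in 1 case, an H3K27ac peak. No such values over peaks of all genes are given here, so the shared sign is not shown to be particular to the members.

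BNIP3, TPI1, EGLN1 and ADM are examples in which both values were below 0, and none was called for H3K27ac. Other own starts were lower for H3K4me3 with an H3K27ac value above 0. These were GYS1 (-0.24 and 0.28), HK2 (-0.22 and 0.10), ANKRD37 (-0.26 and 0.10), DDIT4, MXI1 and HIF1A. At the BNIP3 start H3K4me3 fell by 0.64, and H3K27ac had a log2 fold change of -0.63 (SE 0.18, adjusted p = 0.084). At TPI1 the values were -0.39 for both marks (SE 0.11 for H3K27ac, adjusted p = 0.0915), and at EGLN1 -0.48 and -0.50 (SE 0.14, adjusted p = 0.069). ADM fell by 1.10 for H3K4me3, while its H3K27ac peak had -0.26 (SE 0.08, adjusted p = 0.13). The marks went apart at the upstream GPI peak, where H3K27ac fell by 0.85 and H3K4me3 rose (log2 fold change 0.45, SE 0.08, adjusted p = 7.7e-06). At the far end of HIF1A the H3K27ac value was -1.37 (SE 0.37, adjusted p = 0.055), and at ALDOC -1.10 (SE 0.57, adjusted p = 0.46), both with mean levels of 6.26 CPM or less.

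**Figure D5:**
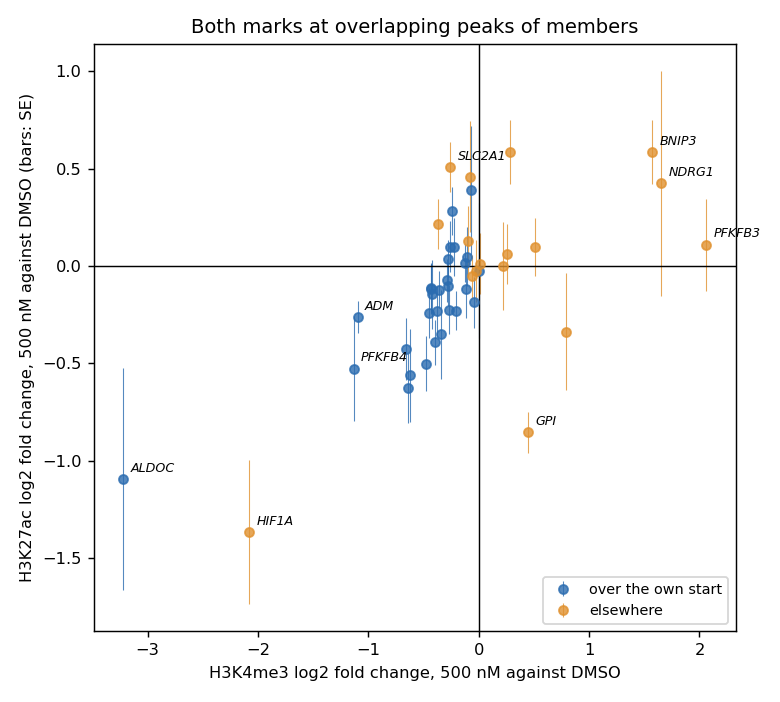
Log2 fold change at 500 nM against DMSO of H3K27ac (with bars of 1 SE) against that of H3K4me3 at the 46 member H3K4me3 peaks with an overlapping tested H3K27ac peak, blue at the gene's own start and orange elsewhere. Where several tested H3K27ac peaks overlap, the one with the longest overlap is drawn. Most blue points lie left of 0 and below 0, and GPI lies to the right of 0 with lower H3K27ac.

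Other genes of the pathway, from lists that do not overlap the members, gave smaller medians. These lists too were chosen with earlier results of these data known. Among 17 further glycolysis genes with an H3K4me3 peak, 11 main peaks were lower and 0 higher, with a median of -0.15. Among 21 further HIF targets, 13 were lower and 2 higher, with a median of -0.12, and among 11 further components of the HIF pathway 7 were lower and 1 higher, also with a median of -0.12. The median over the members' 33 main peaks was -0.32. The difference between the lists was not tested. Of the 7 B cell marker genes, 5 main peaks were lower and 0 higher, with a median of -0.16. The 3 further lists thus did not show a larger median fall than these marker genes. Of 6677 tested peaks of all genes over a start in the 2 highest of 5 bins of level, 27.4% were lower and 6.65% higher. Their median was -0.05.

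The largest falls among the main peaks of these lists were at SLC16A3, ZNF395 and KDM4B. SLC16A3, the lactate exporter MCT4, was at 112 and 109.5 CPM in the DMSO libraries, 122.5 and 102 in those given 150 nM and 47.95 and 49.02 in those given 500 nM (log2 fold change -1.20, SE 0.06, adjusted p = 1.1e-25). ZNF395 was at 80.1 and 79.3 CPM in the DMSO libraries, 77.9 and 76.03 in those given 150 nM and 38.4 and 36.7 in those given 500 nM (log2 fold change -1.08, SE 0.06, adjusted p = 3.2e-24), and KDM4B, a Jumonji demethylase of H3K9 that is itself a HIF target, at 86.5 and 85.6 CPM in the DMSO libraries, 94.5 and 92.6 in those given 150 nM and 48.6 and 44.7 in those given 500 nM (log2 fold change -0.88, SE 0.05, adjusted p = 2.8e-21). In each of these 3 genes both 500 nM libraries lay below the other 4. The called main peaks that rose were at KDELR3, EPAS1 and RORA. EPAS1, which encodes the alpha subunit HIF-2alpha, was at 20.99 and 23.8 CPM in the DMSO libraries, 23.9 and 21.2 in those given 150 nM and 31.5 and 35.03 in those given 500 nM (log2 fold change 0.57, SE 0.08, adjusted p = 1.1e-07). KDELR3, at 1.84 CPM or less in each library, and RORA had log2 fold changes of 2.17 (SE 0.54) and 0.19 (SE 0.06).

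For H3K27ac, the main peaks of 3 further HIF targets were lower, KDM4B (log2 fold change -0.83, SE 0.15, adjusted p = 9.5e-04), ZNF395 (log2 fold change -0.74, SE 0.15, adjusted p = 0.0027) and HILPDA (log2 fold change -0.49, SE 0.10, adjusted p = 0.0065). KDM4B was at 37.7 and 47.7 CPM in the DMSO libraries, 29.1 and 39.02 in those given 150 nM and 22.2 and 26.2 in those given 500 nM, so that both 500 nM libraries lay below the other 4. KDM4B, ZNF395 and HILPDA were the 3 lower H3K27ac main peaks of 19 among the further HIF targets. Of all 54037 tested H3K27ac peaks, 0.231% were lower. Main peaks are the strongest of each gene, and strong peaks were called more often. Of the 10808 peaks in the highest of 5 bins of level, 0.759% were lower. None of the main peaks of the further glycolysis genes or pathway components was called for H3K27ac. One tested PKM peak of the former list, away from its starts, was lower and is not a main peak.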

How the data were processed

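Histone ChIP-seq of OCI-Ly1 cells was measured as read counts per peak, and the deposited count tables of H3K4me3 and H3K27ac were used. Counts were made with featureCounts 2.0.1 on 1 shared peak set per mark, with at least 0.2 of a read inside the peak, per the file headers. The header also carries an option for read pairs, whereas the labels give single reads of 50 bp. Trim Galore 0.6.7, BWA 0.7.17-r1188, Picard 2.27.4, MACS2 2.2.7.1, deepTools 3.5.1, edgeR 3.42.4 and the build GRCh38 are named in the submitters' processing notes.

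Starts are printed 1-based (the deposited start plus 1). Genes, starts and sequences came from RefSeq tables (GRCh38.p14). Each mark was fitted with its 6 libraries in edgeR 4.0.16 (R 4.3.3): filterByExpr by group, TMM scaling and the quasi-likelihood test, with Benjamini-Hochberg adjustment over all tested peaks at 0.05. The SE is the size of the log2 fold change over the root of F. TMM sets the bulk of peaks to no change, so a change common to all peaks was not measured. Counts of a gene's peaks were also summed and tested. The fit was tested on simulated data. Alternatives used edgeR, limma 3.58.1 and DESeq2 1.42.0, and tables and plots Python 3.11.15, pandas 2.3.3 and matplotlib 3.10.9.

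Named in full were called main peaks by size of change (at most 12 per mark), other called peaks with a log2 change of at least 0.58, at most 6 members without a call, and at most 3 genes per direction from other lists. The members and lists were chosen with earlier results of these data known. The 18 libraries of input and other marks were not analysed here.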

Additional observations from a re-analysis of the deposited data

How the results depend on the processing

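For H3K4me3, the counts of member peaks and genes called stayed within 1.5 times the reported ones in all alternatives: 32 to 41 peaks against DMSO (DESeq2 32, replicate block 41), 32 to 44 between doses and 27 to 30 genes by sums. Over all peaks, DESeq2 called 17.1% against 39.4% in edgeR (between doses 17% against 39.2%, sums 19.2% against 41.8%). Over the refits of 28 named peaks, 375 kept direction and call, 13 lost the call (HK1 and PFKFB3 peaks away from starts) and 3 changed sign, all at H3K27ac peaks without a call: LDHA reached 0.0028 with the library split as a term and ran from -0.15 to 0.010 on leaving out 1 library, and HIF1A from -0.0069 to 0.11. For H3K27ac the 2 peaks called against DMSO became 6 with no filter on low counts, 1 with DESeq2, 18 with only the 4 libraries of the contrast, 13 with a replicate block, 6 with the library split as a term, 1 at an adjusted p under 0.01, and 1 to 15 when 1 library was left out. At 150 nM the 0 calls became 0 to 1 on leaving out 1 library. Between doses the 3 calls became 1 with DESeq2, 5 with the replicate block, 1 at the stricter threshold and 0 to 13 on leaving out 1 library. The 1 gene called by sums became 2 with loess offsets, 6 with only 4 libraries, 3 with the replicate block, 3 with the split and 0 to 7 on leaving out 1 library. The cause of these changes was not tested. These H3K27ac counts stand without the shares over all tested peaks, so they do not describe the members apart from other peaks. Deviations of same-numbered libraries correlated by 0.01 to 0.14, with the highest value for H3K27ac between DMSO and 150 nM. In both of those groups replicate 2 was also the library low on unplaced contigs. Whether same-numbered libraries share an origin is not given in the labels and was not tested. Median counts per peak were 21 to 24 for H3K27ac and 263 to 328 for H3K4me3, and the part of depth in the H3K27ac calls was not tested.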
